A study of Mus musculus with 10 samples.

Results

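Non-collagen matrix and myofibroblast genes of fibroblasts were followed in mouse embryonic stem cells, that is all array probes whose gene name in the scanner files was Dcn, Lum, Fn1, Fbn1, Fbln2, Sparc, Postn, Thy1, Acta2 or Tagln. These 10 genes had 11 probes among the 36161 gene names and 55681 probes on the array, and Sparc had 2 of them. Of the 11 probes, 9 passed the filter on dim probes (well above background on all arrays of some group) and were tested, and those of Lum and Postn were well above background on none of the 10 arrays.

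The series measured total RNA of 6 groups on 10 one-colour Agilent arrays, with the question of what DNA demethylation brought about by overexpressed PRDM14 does to transcript levels. PRDM14 (line JP-23, 2 arrays) is a J1 line stably expressing Prdm14, and PRDM14_DNMT3B (line JP-23+3b-3, 2 arrays) stably expresses Prdm14 and Dnmt3b1. Dnmt3b_KO (line 8bb, Dnmt3b-/-) has 2 arrays, Dnmt1_KO (line 36, Dnmt1-/-) has 1 array, and TKO (line 19-1, Dnmt1-/-Dnmt3a-/-Dnmt3b-/-) has 1 array. Wild-type J1 (2 arrays) is the line they were compared with. All lines grew without feeder cells in GMEM with 10% FCS and LIF, and each group is 1 line, so group and line cannot be told apart. Nothing states that replicates came from separate cultures, and p-values therefore reflect the spread between these arrays alone, which may be technical.

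Fibroblasts build their surroundings from secreted glycoproteins. Fibronectin is assembled on the cell surface through integrins, fibrillin forms microfibrils that carry elastin and latent TGF-beta, fibulins bind both, and small proteoglycans such as decorin coat collagen fibrils. Matricellular proteins such as SPARC and periostin adjust how cells hold on to this scaffold. Activated fibroblasts, or myofibroblasts, add the smooth muscle proteins alpha-actin and transgelin, whose genes respond to serum response factor (SRF) and TGF-beta. Pluripotent stem cells do not build a connective tissue, although SPARC and fibronectin are also products of early embryonic cells.

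Levels are log2 intensity minus the 75th percentile of the array, so 0 means as bright as that percentile, and differences are between group means on this scale. Probes differ in how brightly they bind, so levels were compared between groups and not between genes. Spots well above background made up 50.03% to 56.03% of each array, no spot was saturated, and replicate arrays correlated at r of 0.989 to 0.995 over 33100 probes, which are not independent replicates. All 10 embryonic stem cell markers listed (among them Pou5f1, Sox2 and Nanog) were well above background on all 10 arrays. The brightest Dnmt1 probe averaged -2.67 in Dnmt1_KO and -3.15 in TKO, against 1.47 in J1, and the Dnmt3b probe 1.66 in Dnmt3b_KO and 2.00 in TKO, against 7.59 in J1. The Dnmt3a probe was not well above background in TKO. The Prdm14 probe went against the labels, at -4.17 in PRDM14 and, not well above background, at -6.38 in PRDM14_DNMT3B, against 0.01 in J1. Dnmt3b averaged 4.14 in PRDM14_DNMT3B, against 5.03 in PRDM14 and 7.59 in J1. Whether these probes detect the introduced genes, or lie within the deleted parts in the knockouts, is not stated, and both lines are therefore called by their labels. Each of the 2 PRDM14-labelled arrays was alone on its slide, and in comparisons of that line slide and group cannot be told apart. The first replicates of PRDM14_DNMT3B, Dnmt3b_KO and J1, with Dnmt1_KO and TKO, shared slide 1, and the second replicates of the first 3 shared slide 2. J1 replicate 2, Dnmt1_KO and TKO were read in scan pass 2 of their slides and the other arrays in pass 1, so differences from J1 on slide 2, and those of Dnmt1_KO and TKO on slide 1, cross scan passes.

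Fbln2, Acta2 and Fbn1 were called higher than J1 in all 3 knockout lines, which lack DNA methyltransferases that methylate CG dinucleotides. Their promoters are shown for that reason, as 300 bases that run 250 before to 50 after the start, 5′ to 3′ on the gene's strand, from RefSeq on GRCm38.p6. CG dinucleotides are in capitals, and DNA methylation itself was not measured here.
Fbln2: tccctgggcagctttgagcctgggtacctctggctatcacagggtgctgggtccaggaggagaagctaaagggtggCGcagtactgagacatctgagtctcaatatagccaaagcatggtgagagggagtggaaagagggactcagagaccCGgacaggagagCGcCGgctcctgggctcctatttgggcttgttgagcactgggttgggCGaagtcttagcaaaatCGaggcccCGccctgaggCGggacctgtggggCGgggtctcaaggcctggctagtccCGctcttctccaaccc
Acta2: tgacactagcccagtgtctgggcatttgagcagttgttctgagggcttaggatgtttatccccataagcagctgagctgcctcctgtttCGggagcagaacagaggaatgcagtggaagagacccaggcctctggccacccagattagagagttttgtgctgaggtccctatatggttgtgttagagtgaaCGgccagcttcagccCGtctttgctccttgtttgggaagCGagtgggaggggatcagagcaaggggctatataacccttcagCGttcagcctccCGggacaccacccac
Fbn1: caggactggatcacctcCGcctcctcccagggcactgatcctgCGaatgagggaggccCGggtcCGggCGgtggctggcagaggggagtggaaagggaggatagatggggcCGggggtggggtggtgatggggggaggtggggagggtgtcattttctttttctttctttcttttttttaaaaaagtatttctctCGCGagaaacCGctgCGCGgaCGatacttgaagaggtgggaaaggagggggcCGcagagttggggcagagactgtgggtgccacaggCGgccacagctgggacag

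These windows lie at chr6:91212514-91212813 (plus strand) for Fbln2, chr19:34255324-34255623 (minus strand) for Acta2 and chr2:125506389-125506688 (minus strand) for Fbn1, all on GRCm38.p6. The Fbln2 window held 10 CG dinucleotides, that of Acta2 6 and that of Fbn1 14, against a median of 7 over the 32851 promoters of the same length. Of those promoters, 56.5% held fewer than Fbln2, 43.6% fewer than Acta2 and 63.7% fewer than Fbn1, so none of these windows stood far from the middle. The table held promoters of 5 of the 10 genes, with 4 CG dinucleotides for Sparc and 4 and 5 for the 2 starts of Postn. The CArG box, the site that SRF binds (CC, then 6 bases that are each A or T, then GG, which reads the same on both strands), was searched because Acta2 is a textbook SRF target. No strict match was in the windows of the 5 genes, and 1.63% of all promoters held one. With 1 mismatch allowed, the Acta2 window held CCCTATATGG, which begins 84 bases before the start, and CCTTGTTTGG, 34 bases before it. The Fbln2 window held CCTATTTGGG, 71 bases before the start, and 9.98% of all promoters held such a match.

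**Figure D1:**
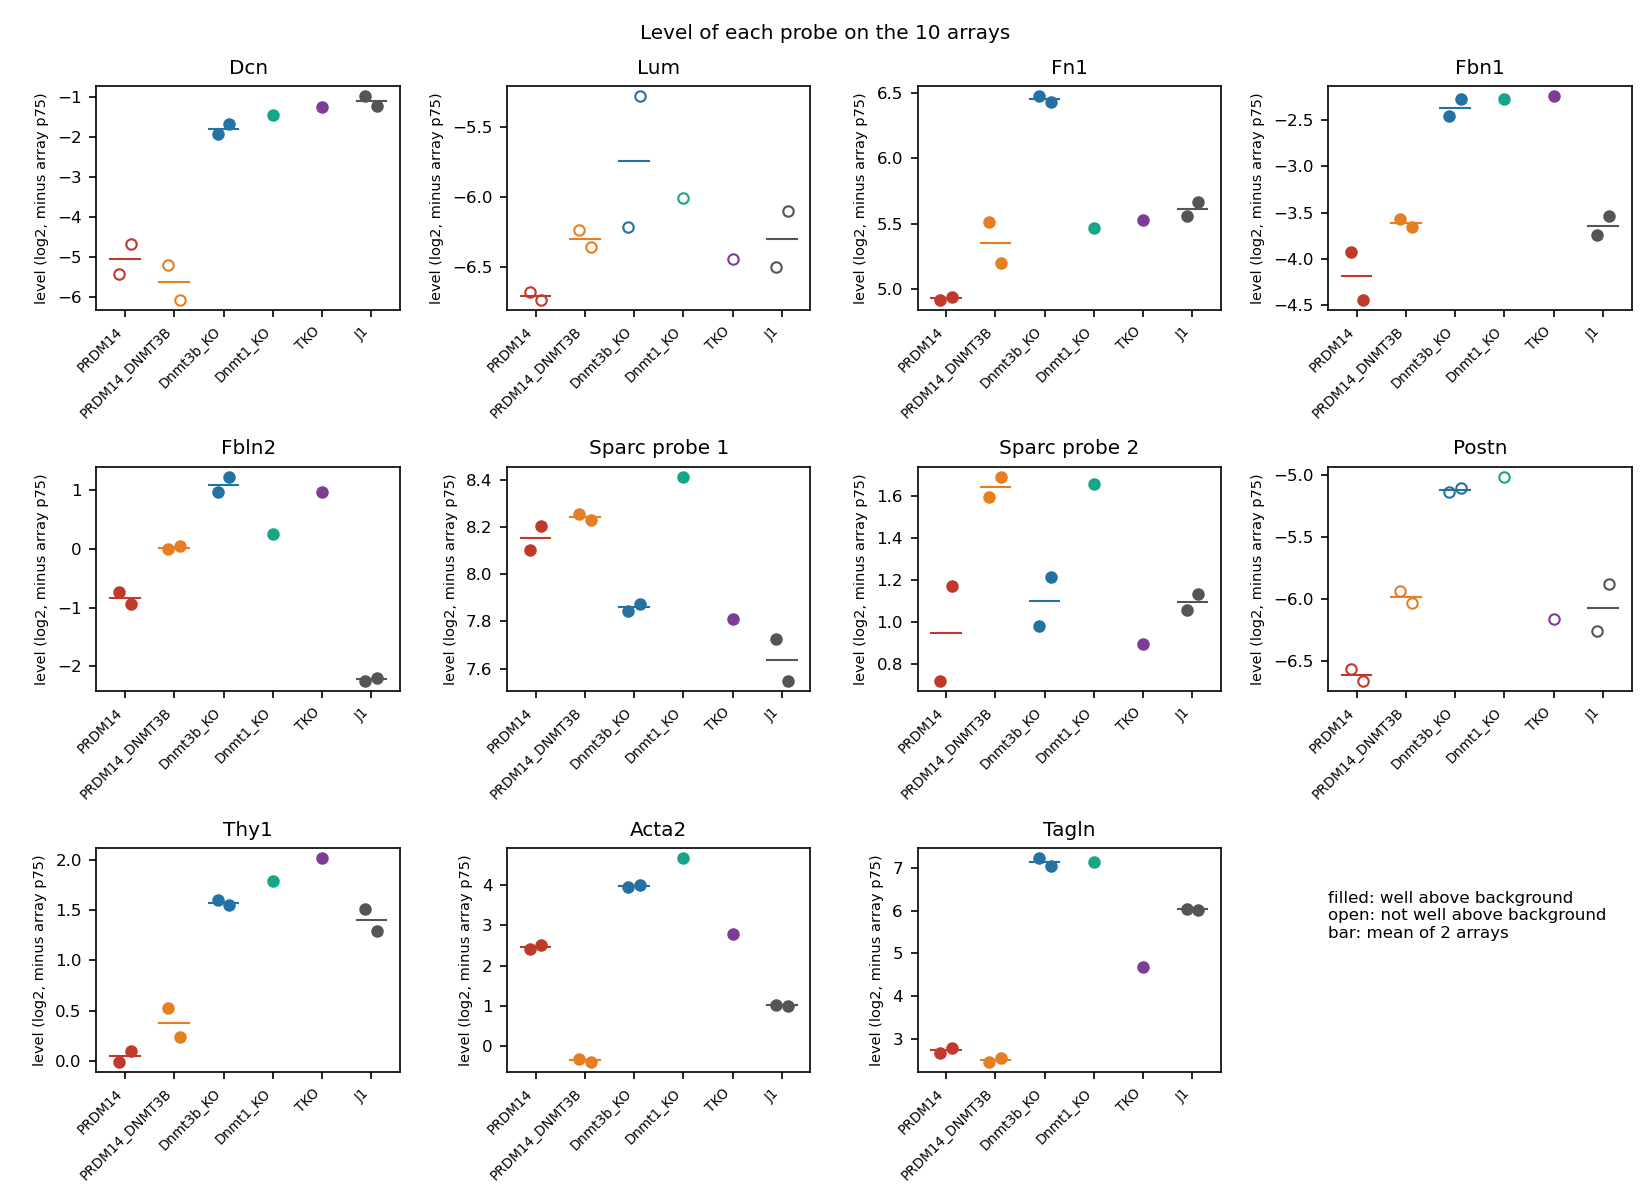
Level of each of the 11 probes on the 10 arrays (vertical axis, log2 intensity minus the 75th percentile of the array, scaled per panel), by group. Points are arrays, filled where the probe was well above background, and bars are means of 2 arrays. Dcn, Thy1 and Tagln are low on the 4 arrays labelled PRDM14 or PRDM14_DNMT3B, Fbln2 is lowest on the J1 arrays, and Lum and Postn are open on all 10 arrays.

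Dcn encodes decorin, the small leucine-rich proteoglycan that binds collagen fibrils, and its probe lies at chr10:96980233-96980292 (mm9). Its level was -5.41 and -4.66 on the PRDM14-labelled arrays and -5.19 and -6.06 on the PRDM14_DNMT3B-labelled arrays. It was -1.92 and -1.67 in Dnmt3b_KO, -1.44 in Dnmt1_KO and -1.25 in TKO, against -0.97 and -1.21 in J1. The probe was well above background on 6 arrays, those of the 3 knockout lines and J1, and not on the other 4, and these sets did not overlap. A fold against dim arrays is a lower bound: each dim array counted with its own level or with the lowest level well above background, whichever was higher. The p-value beside such a bound, here and below, belongs to the fitted difference, which takes dim levels as read, and not to the bound. Dcn was at least 11.2-fold lower in the PRDM14-labelled line (fitted log2 difference -3.94, SE 0.36, limma adjusted p = 0.000686) than in J1. It was at least 13.0-fold lower in the PRDM14_DNMT3B-labelled line (fitted -4.53, SE 0.36, limma adjusted p = 0.000419) than in J1, with differences of -4.21 on slide 1 and -4.85 on slide 2. Of the 9 probes tested, that of decorin was the only one that had a group with no array well above background. Against Dnmt3b_KO, Dcn was at least 6.89-fold lower in the PRDM14-labelled line and at least 8.00-fold lower in the PRDM14_DNMT3B-labelled line (limma adjusted p = 0.00161 and 0.00102). The knockout lines differed from J1 by log2 differences of -0.70 (95% interval -1.60 to 0.20) in Dnmt3b_KO, -0.35 (-1.45 to 0.75) in Dnmt1_KO and -0.16 (-1.26 to 0.95) in TKO, none past the test. The Dnmt3b_KO arrays nevertheless lay below those of J1, and the intervals are wide. With normexp background correction (offset 50 intensity units) and quantile normalization in place of the 75th percentile, which changes background and scaling together, the Dcn difference from J1 was -1.27 in the PRDM14-labelled line and -1.42 in the PRDM14_DNMT3B-labelled line, both past the test. In bulk RNA, fewer cells with Dcn transcripts and less Dcn RNA per cell cannot be told apart, here or for the genes that follow.

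Lum encodes lumican, another small leucine-rich proteoglycan of collagen fibrils (probe at chr10:97035210-97035269, mm9). Its level lay between -6.73 on a PRDM14-labelled array and -5.28 on a Dnmt3b_KO array, and on no array was it well above background. No difference is given for it. Of 10 other genes of this family, 3 were bright enough to test: Bgn, Omd and Podn. Bgn, which encodes biglycan, the close relative of decorin, was 0.90 higher in the PRDM14-labelled line than in J1 on the log2 scale (limma adjusted p = 0.0116). Podn, which encodes podocan, was not well above background in the PRDM14-labelled line and was at least 2.80-fold lower there than in J1 (fitted log2 difference -1.75, limma adjusted p = 0.00772). None of the 3 passed the test in the other comparisons with J1.

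Fn1 encodes fibronectin, the glycoprotein that cells assemble into fibrils through integrins (probe at chr1:71632116-71632175, mm9). Its level was 4.92 and 4.94 on the PRDM14-labelled arrays and 5.51 and 5.20 on the PRDM14_DNMT3B-labelled arrays. It was 6.47 and 6.43 in Dnmt3b_KO, 5.47 in Dnmt1_KO and 5.53 in TKO, against 5.56 and 5.66 in J1. Dnmt3b_KO stood above every other array and the PRDM14-labelled line below, and the arrays of the other 4 groups overlapped or lay between them. Fn1 was 1.79-fold higher in Dnmt3b_KO than in J1 (log2 difference 0.84, SE 0.12, limma adjusted p = 0.00903), with 0.92 on slide 1 and 0.77 on slide 2. That call was lost without Dnmt3b_KO replicate 1 (limma adjusted p = 0.0528) and with normexp correction and quantile normalization together (limma adjusted p = 0.0818). Fn1 was 1.60-fold lower in the PRDM14-labelled line than in J1 (log2 difference -0.68, SE 0.12, limma adjusted p = 0.00827). The difference from J1 was -0.26 (95% interval -0.57 to 0.05) in the PRDM14_DNMT3B-labelled line, -0.14 (-0.52 to 0.24) in Dnmt1_KO and -0.08 (-0.46 to 0.30) in TKO, none past the test. Against Dnmt3b_KO, fibronectin was 2.87-fold lower in the PRDM14-labelled line and 2.14-fold lower in the PRDM14_DNMT3B-labelled line (limma adjusted p = 0.000527 and 0.00189).

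Fbn1 encodes fibrillin-1, the main protein of microfibrils (probe at chr2:125126727-125126786, mm9). Its level was -3.93 and -4.44 on the PRDM14-labelled arrays and -3.58 and -3.66 on the PRDM14_DNMT3B-labelled arrays. It was -2.46 and -2.27 in Dnmt3b_KO, -2.28 in Dnmt1_KO and -2.25 in TKO, against -3.74 and -3.54 in J1. The 3 knockout lines were alike and stood above all other arrays, and the PRDM14_DNMT3B-labelled arrays overlapped J1. Compared with J1, Fbn1 was 2.42-fold higher in Dnmt3b_KO (log2 difference 1.27, SE 0.19, limma adjusted p = 0.00937), with 1.28 on slide 1 and 1.26 on slide 2. It was 2.57-fold higher in Dnmt1_KO (1.36, SE 0.23, limma adjusted p = 0.0117) and 2.63-fold higher in TKO (1.39, SE 0.23, limma adjusted p = 0.00985) than in J1. The Dnmt3b_KO call was lost without Dnmt3b_KO replicate 2 (limma adjusted p = 0.0531), and normexp correction with quantile normalization gave smaller differences, 0.58 in Dnmt3b_KO, 0.51 in Dnmt1_KO and 0.52 in TKO. The difference from J1 was 0.02 (95% interval -0.45 to 0.49) in the PRDM14_DNMT3B-labelled line. It was -0.54 (-1.01 to -0.07, limma adjusted p = 0.0726) in the PRDM14-labelled line. Over 18 alternatives the latter difference ran from -0.80 to -0.09, and 2 of them gained the call. These were the fit without PRDM14 replicate 1 and that over probes well above background on all 10 arrays (limma adjusted p = 0.0441 in the second). Against Dnmt3b_KO, fibrillin-1 was 3.52-fold lower in the PRDM14-labelled line and 2.38-fold lower in the PRDM14_DNMT3B-labelled line (limma adjusted p = 0.00128 and 0.00559). With normexp correction and quantile normalization these log2 differences were only -0.66 and -0.52, both past the test. The probe was faint, and -4.44 on PRDM14 replicate 2 was near the lowest level well above background on that array, -4.62.

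Fbln2 encodes fibulin-2, which binds fibronectin, fibrillin and basement membrane proteins (probe at chr6:91222118-91222177, mm9). Its level was -0.74 and -0.95 on the PRDM14-labelled arrays and -0.01 and 0.05 on the PRDM14_DNMT3B-labelled arrays. It was 0.96 and 1.21 in Dnmt3b_KO, 0.25 in Dnmt1_KO and 0.96 in TKO, against -2.24 and -2.20 in J1. J1 was the lowest of the 6 groups, and no other array overlapped it. From low to high the order was J1, PRDM14-labelled, PRDM14_DNMT3B-labelled, Dnmt1_KO, TKO and Dnmt3b_KO, and the TKO array lay within the range of Dnmt3b_KO. Fbln2 was 9.91-fold higher in Dnmt3b_KO than in J1 (log2 difference 3.31, SE 0.12, limma adjusted p = 0.000436), with 3.21 on slide 1 and 3.41 on slide 2. It was 5.53-fold higher in Dnmt1_KO and 9.09-fold higher in TKO (limma adjusted p = 0.000603 and 0.000366), both against J1. Compared with J1, it was also 2.60-fold higher in the PRDM14-labelled line and 4.72-fold higher in the PRDM14_DNMT3B-labelled line (limma adjusted p = 0.000648 and 0.00014). Fbln2 thus passed the test upward against J1 in all 5 other lines, comparisons that share the same 2 J1 arrays. With normexp correction and quantile normalization together, the log2 difference from J1 was 0.81 in place of 1.38 in the PRDM14-labelled line, 1.46 in place of 2.24 in the PRDM14_DNMT3B-labelled line and 1.61 in place of 2.47 in Dnmt1_KO, all past the test. Fbln2 was 1.82-fold higher in the PRDM14_DNMT3B-labelled line than in the PRDM14-labelled line (log2 difference 0.86, SE 0.12, limma adjusted p = 0.00877), a call lost without PRDM14 replicate 2 (adjusted p = 0.0547). Against Dnmt3b_KO it was 3.82-fold lower in the PRDM14-labelled line and 2.10-fold lower in the PRDM14_DNMT3B-labelled line (limma adjusted p = 0.00023 and 0.0021).

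Sparc encodes a collagen-binding matricellular protein also known as osteonectin, and it had 2 probes. Probe 1 (chr11:55208939-55208998, mm9) was bright, at 8.10 and 8.20 on the PRDM14-labelled arrays, 8.25 and 8.23 on the PRDM14_DNMT3B-labelled arrays, 7.84 and 7.87 in Dnmt3b_KO, 8.41 in Dnmt1_KO and 7.81 in TKO, against 7.72 and 7.55 in J1. All arrays lay within 0.86 of each other, the smallest spread of the 11 probes, and J1 was lowest. By probe 1, Sparc was 1.43-fold higher in the PRDM14-labelled line (log2 difference 0.52, SE 0.10, limma adjusted p = 0.00943) than in J1, a call lost without PRDM14 replicate 2 (adjusted p = 0.0583). It was 1.52-fold higher in the PRDM14_DNMT3B-labelled line (limma adjusted p = 0.00519) and 1.71-fold higher in Dnmt1_KO (limma adjusted p = 0.00858) than in J1. The differences of 0.22 in Dnmt3b_KO (95% interval -0.02 to 0.46) and 0.17 in TKO (-0.12 to 0.47) did not pass the test. Probe 2 (chr11:55208003-55208061, mm9) read 0.72 and 1.17 on the PRDM14-labelled arrays, 1.59 and 1.69 on the PRDM14_DNMT3B-labelled arrays, 0.98 and 1.21 in Dnmt3b_KO, 1.65 in Dnmt1_KO and 0.89 in TKO, against 1.06 and 1.13 in J1. Both probes were high in the PRDM14_DNMT3B-labelled line and Dnmt1_KO, and they parted in the PRDM14-labelled line, where probe 2 overlapped J1 (log2 difference -0.15, 95% interval -0.58 to 0.28). Probe 2 passed no test against J1, with 0.55 in the PRDM14_DNMT3B-labelled line (limma adjusted p = 0.0524), a difference that was called in 8 of 18 alternatives. It was 1.62-fold higher in the PRDM14_DNMT3B-labelled line than in the PRDM14-labelled line (limma adjusted p = 0.0421), where probe 1 differed by 0.09 (95% interval -0.15 to 0.33). Probe 1 was 1.30-fold higher in the PRDM14_DNMT3B-labelled line than in Dnmt3b_KO (limma adjusted p = 0.0335). These last 2 calls were each lost in 10 of the alternatives tried, so the Sparc differences outside the comparisons with J1 were not firm.

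Postn encodes periostin, a matricellular protein of wounds and growing connective tissue (probe at chr3:54194840-54194899, mm9). Its level was -6.57 and -6.66 on the PRDM14-labelled arrays, -5.94 and -6.03 on the PRDM14_DNMT3B-labelled arrays, -5.13 and -5.10 in Dnmt3b_KO, -5.02 in Dnmt1_KO and -6.16 in TKO, against -6.26 and -5.88 in J1. None of these values was well above background, so no fold change is given for periostin.

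Thy1 encodes CD90, a surface glycoprotein that marks fibroblasts and several other cell types, among them some stem cells (probe at chr9:43856591-43856650, mm9). Its level was -0.01 and 0.10 on the PRDM14-labelled arrays and 0.52 and 0.24 on the PRDM14_DNMT3B-labelled arrays. It was 1.60 and 1.55 in Dnmt3b_KO, 1.79 in Dnmt1_KO and 2.01 in TKO, against 1.51 and 1.29 in J1. The 4 arrays labelled PRDM14 or PRDM14_DNMT3B stood below the other 6, and the PRDM14-labelled line was lowest. Thy1 was 2.55-fold lower in the PRDM14-labelled line (log2 difference -1.35, SE 0.14, limma adjusted p = 0.000918) and 2.02-fold lower in the PRDM14_DNMT3B-labelled line (-1.02, SE 0.14, limma adjusted p = 0.00252) than in J1. Within slides the second of these differences was -0.98 and -1.05. TKO was 1.53-fold higher than J1 (log2 difference 0.62, SE 0.17, limma adjusted p = 0.0426), a call lost in 9 of 17 alternatives. Those included leaving out any 1 array of J1, the PRDM14-labelled line or Dnmt3b_KO, with adjusted p of 0.0516 to 0.125. The differences of 0.18 in Dnmt3b_KO (95% interval -0.16 to 0.51) and 0.40 in Dnmt1_KO (-0.01 to 0.80) from J1 did not pass the test. Against Dnmt3b_KO, Thy1 was 2.88-fold lower in the PRDM14-labelled line and 2.29-fold lower in the PRDM14_DNMT3B-labelled line (limma adjusted p = 0.000704 and 0.00189).

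Acta2 encodes smooth muscle alpha-actin, the actin of contractile myofibroblasts, and was read by 10 spots of 1 probe (chr19:34316060-34316119, mm9). Its level was 2.42 and 2.52 on the PRDM14-labelled arrays and -0.32 and -0.39 on the PRDM14_DNMT3B-labelled arrays. It was 3.96 and 3.997 in Dnmt3b_KO, 4.67 in Dnmt1_KO and 2.79 in TKO, against 1.02 and 1.01 in J1. The replicates of each group lay within 0.10 of each other, no groups overlapped, and J1 stood between the lines labelled PRDM14_DNMT3B and PRDM14. Acta2 was 2.75-fold higher in the PRDM14-labelled line (log2 difference 1.46, SE 0.08, limma adjusted p = 0.000151) than in J1. It was 2.58-fold lower in the PRDM14_DNMT3B-labelled line (-1.37, SE 0.08, limma adjusted p = 0.000189) than in J1, with -1.34 on slide 1 and -1.39 on slide 2. Set directly against each other, the PRDM14_DNMT3B-labelled line was 7.09-fold lower than the PRDM14-labelled line (-2.83, SE 0.08, limma adjusted p = 0.000637). The knockout lines were all above J1, 7.82-fold in Dnmt3b_KO (2.94 on slide 1, 2.99 on slide 2), 12.6-fold in Dnmt1_KO and 3.41-fold in TKO (limma adjusted p = 0.000234, 0.000186 and 0.000529). Against Dnmt3b_KO, smooth muscle actin was 2.85-fold lower in the PRDM14-labelled line and 20.2-fold lower in the PRDM14_DNMT3B-labelled line (limma adjusted p = 0.000142 and 1.87e-05). Its promoter window, shown with the other sequences, held a pair of near matches to the CArG box. Actin genes are alike in sequence, and whether this probe also binds transcripts of other actin genes was not tested.

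Tagln encodes transgelin (SM22-alpha), an actin-binding protein of smooth muscle and myofibroblasts (probe at chr9:45738097-45738156, mm9). Its level was 2.68 and 2.79 on the PRDM14-labelled arrays and 2.47 and 2.57 on the PRDM14_DNMT3B-labelled arrays. It was 7.22 and 7.04 in Dnmt3b_KO, 7.14 in Dnmt1_KO and 4.69 in TKO, against 6.04 and 6.01 in J1. The 4 arrays labelled PRDM14 or PRDM14_DNMT3B were far below the rest, TKO lay between them and J1, and the Dnmt1_KO array lay within the range of Dnmt3b_KO at the top. Tagln was 9.81-fold lower in the PRDM14-labelled line (log2 difference -3.29, SE 0.11, limma adjusted p = 3.65e-05) than in J1. It was 11.4-fold lower in the PRDM14_DNMT3B-labelled line (-3.51, SE 0.11, limma adjusted p = 3.46e-05) than in J1, with -3.58 on slide 1 and -3.45 on slide 2. Transgelin and smooth muscle actin therefore moved in opposite directions in the PRDM14-labelled line relative to J1, and both fell in the PRDM14_DNMT3B-labelled line. Compared with J1, Tagln was 2.15-fold higher in Dnmt3b_KO (1.18 on slide 1, 1.02 on slide 2) and 2.16-fold higher in Dnmt1_KO (limma adjusted p = 0.00265 and 0.00352). TKO was 2.53-fold lower than J1 (log2 difference -1.34, SE 0.13, limma adjusted p = 0.00185). Against Dnmt3b_KO, Tagln was 21.1-fold lower in the PRDM14-labelled line and 24.5-fold lower in the PRDM14_DNMT3B-labelled line (limma adjusted p = 1.82e-05 and 2.09e-05). Between these 2 lines it differed by -0.22 on the log2 scale, PRDM14_DNMT3B minus PRDM14 (95% interval -0.48 to 0.04), which did not pass the test.

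**Figure D2:**
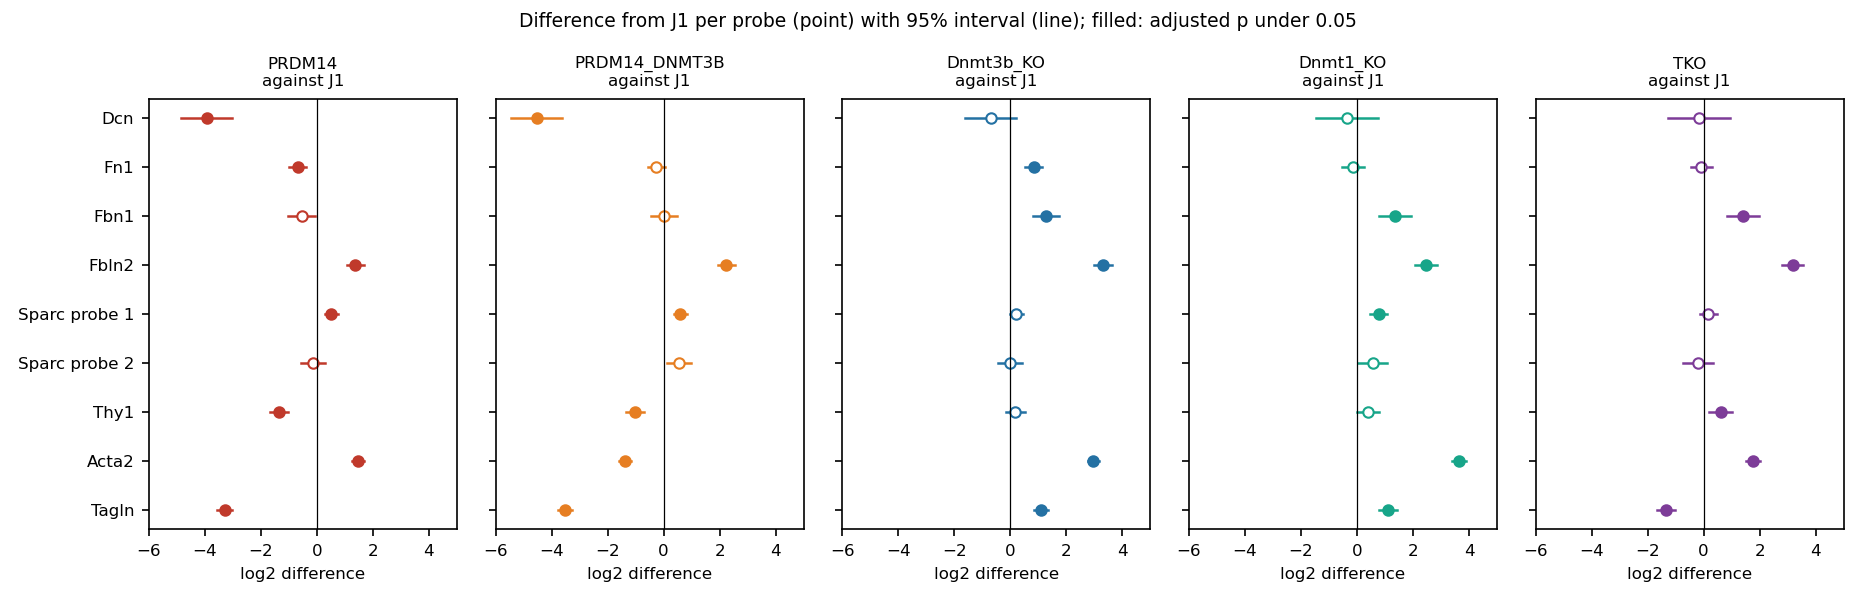
Difference of each line from J1 (horizontal axis, log2 difference of group means) for the 9 probes tested (vertical axis). Points are limma estimates, lines their 95% intervals, and filled points passed an adjusted p of 0.05. Fbln2 is to the right of 0 in all 5 panels, Dcn and Tagln are far to the left in the PRDM14 and PRDM14_DNMT3B panels, and Acta2 is to the left only in the PRDM14_DNMT3B panel.

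Counted by comparison, the 3 knockout lines carried more of these genes above J1 than below. In Dnmt3b_KO against J1, 5 of the 9 probes tested were higher (Fbln2, Fn1, Acta2, Tagln and Fbn1) and 0 lower. Of all 33100 probes tested in that comparison, 19.5% were called, 9.45% higher and 10% lower. In Dnmt1_KO against J1, 5 were higher (Fbln2, Sparc probe 1, Acta2, Tagln and Fbn1) and 0 lower, where 26.4% of all probes were called, 11.6% higher and 14.8% lower. In TKO against J1, 4 were higher (Fbln2, Thy1, Acta2 and Fbn1) and 1 lower (Tagln), where 26.8% of all probes were called, 12.5% higher and 14.3% lower. The medians over the 9 probes were 0.84, 0.77 and 0.17 log2 units in Dnmt3b_KO, Dnmt1_KO and TKO, beside -0.11, -0.16 and -0.08 over all probes. The single arrays of Dnmt1_KO and TKO were taken to vary as much as the replicated groups did.

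The lines labelled PRDM14 and PRDM14_DNMT3B had calls in both directions against J1. In the PRDM14-labelled line against J1, 3 of the 9 probes were higher (Fbln2, Sparc probe 1 and Acta2) and 4 lower (Dcn, Fn1, Thy1 and Tagln), where 38.1% of all probes were called, 20.1% higher and 18.1% lower. In the PRDM14_DNMT3B-labelled line against J1, 2 were higher (Fbln2 and Sparc probe 1) and 4 lower (Dcn, Thy1, Acta2 and Tagln), where 38.4% of all probes were called, 18.4% higher and 20% lower. The medians were -0.54 in the PRDM14-labelled line and -0.26 in the PRDM14_DNMT3B-labelled line, beside -0.03 and -0.07 over all probes. In the PRDM14_DNMT3B-labelled against the PRDM14-labelled line, 2 were higher (Fbln2 and Sparc probe 2) and 1 lower (Acta2), where 19.4% of all probes were called, 8.63% higher and 10.8% lower. The median was 0.33, beside -0.04 over all probes. In these 3 comparisons the share of the 9 probes called was above that of all probes, a statement that rests on few probes.

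Against Dnmt3b_KO most of these probes were lower, in comparisons that share the 2 Dnmt3b_KO arrays. In the PRDM14-labelled line against Dnmt3b_KO, 0 of the 9 probes were higher and 7 lower (Dcn, Fbln2, Fn1, Thy1, Acta2, Tagln and Fbn1), where 35.3% of all probes were called, 20.9% higher and 14.3% lower. In the PRDM14_DNMT3B-labelled line against Dnmt3b_KO, 1 was higher (Sparc probe 1) and 7 lower (again Dcn, Fbln2, Fn1, Thy1, Acta2, Tagln and Fbn1), where 29.5% of all probes were called, 15.7% higher and 13.8% lower. The medians were -1.53 and -1.19, beside 0.09 and 0.06 over all probes. Sparc was not called lower by either probe.

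**Figure D3:**
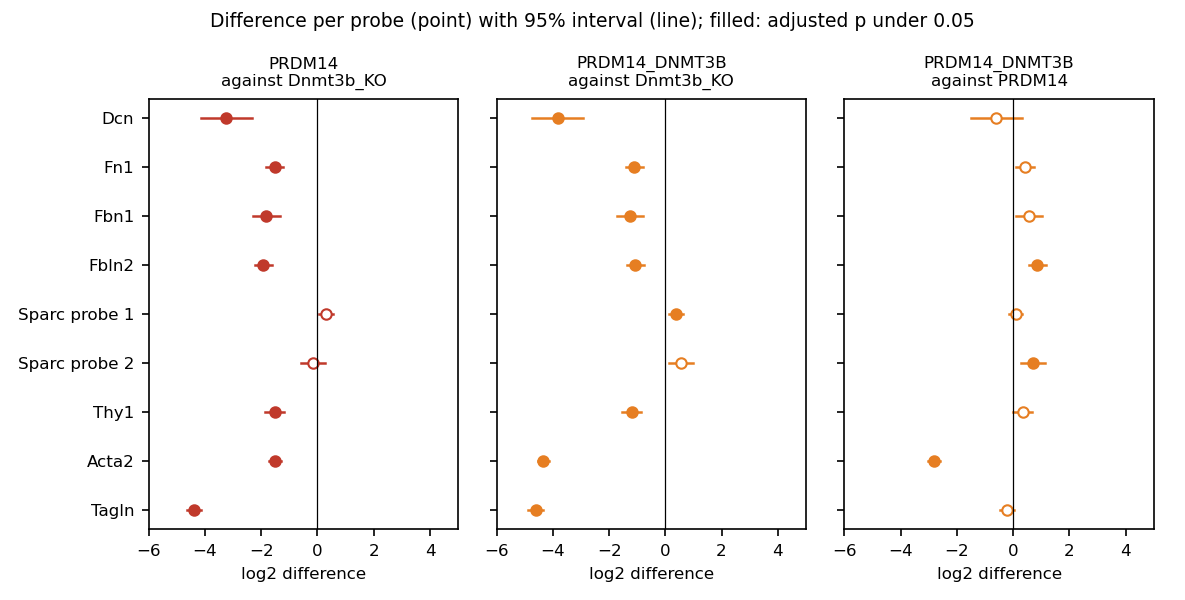
Differences of the 9 probes tested in the comparisons that do not use J1 (horizontal axis, log2 difference of group means). Points are limma estimates, lines their 95% intervals, and filled points passed an adjusted p of 0.05. All of these genes but Sparc lie to the left of 0 in both panels against Dnmt3b_KO. Sparc probe 1 lies to the right in both, and Sparc probe 2 is slightly to the left (-0.15) in PRDM14 against Dnmt3b_KO. Acta2 is the one called lower in PRDM14_DNMT3B against PRDM14.

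Smooth muscle contractile genes, listed without Acta2 and Tagln, had more members called lower than higher in the lines labelled PRDM14 and PRDM14_DNMT3B and in TKO. Of 15 listed and 12 tested, 1 was higher and 6 lower in the PRDM14-labelled line, and 0 higher and 8 lower in the PRDM14_DNMT3B-labelled line, than in J1. Over all 23729 genes (each by its brightest probe) the shares were 20.3% higher and 18.3% lower in the first of these comparisons, and 19.1% and 19.3% in the second. In Dnmt3b_KO and in Dnmt1_KO, 4 were higher and 1 lower than in J1, and in TKO 2 were higher and 7 lower. Over all genes the shares were 10.3% higher and 9.32% lower in Dnmt3b_KO, 12.7% and 14.0% in Dnmt1_KO and 13.5% and 13.7% in TKO. Cnn1, which encodes the actin-binding calponin-1, was 7.38-fold lower in the PRDM14-labelled line, 10.5-fold lower in the PRDM14_DNMT3B-labelled line and 1.58-fold lower in TKO, and 2.05-fold higher in Dnmt3b_KO and 2.56-fold higher in Dnmt1_KO, than in J1 (limma adjusted p = 3.98e-05, 3.25e-05, 0.0124, 0.00256 and 0.00161). Cald1, which encodes caldesmon, was 6.01-fold lower in the PRDM14-labelled line and 1.94-fold lower in the PRDM14_DNMT3B-labelled line than in J1 (limma adjusted p = 0.000108 and 0.00305). Actg2, which encodes the smooth muscle gamma-actin, was not well above background in J1. It was at least 5.49-fold higher in Dnmt3b_KO and at least 5.12-fold higher in Dnmt1_KO. Actg2 passed the dim filter only through knockout lines where it was bright, so no p-value is given for it. It is among the 4 counted as higher in each of these lines. The list's median difference from J1 was -0.40 in the PRDM14-labelled line, -1.10 in the PRDM14_DNMT3B-labelled line, 0.32 in Dnmt3b_KO, 0.16 in Dnmt1_KO and -0.77 in TKO. The medians over all genes in the same order were -0.03, -0.06, -0.10, -0.14 and -0.07. Against Dnmt3b_KO, 9 of the 12 were lower in each of the lines labelled PRDM14 and PRDM14_DNMT3B, with 1 higher in PRDM14 and 0 in PRDM14_DNMT3B. Over all genes, 20.7% were higher and 15.4% lower in the PRDM14-labelled line against Dnmt3b_KO, and 15.7% and 14.1% in the PRDM14_DNMT3B-labelled line.

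Genes of elastic fibres and microfibrils, listed without Fbn1 and Fbln2, were more often higher than lower in the knockout lines. Of 17 listed and 16 tested, 8 were higher and 1 lower in Dnmt3b_KO than in J1 (50% higher, against 10.3% of all genes), and in Dnmt1_KO and in TKO 6 were higher and 1 lower (37.5% higher, against 12.7% and 13.5% of all genes). The median difference was 0.77 in Dnmt3b_KO, 0.89 in Dnmt1_KO (0.54 with dim genes at their bound) and 0.59 in TKO. Lox, which encodes the lysyl oxidase that crosslinks collagen and elastin, was not well above background in J1. It was at least 2.16-fold higher in Dnmt3b_KO, at least 1.40-fold in Dnmt1_KO and at least 1.57-fold in TKO. Fbln5, which encodes an elastin-binding fibulin, was at least 2.94-fold higher in Dnmt3b_KO than in J1, where it was not well above background. Lox and Fbln5 passed the dim filter only through knockout lines where they were bright, so no p-value is given for them. Both are among the 8 counted as higher in Dnmt3b_KO. Efemp1, which encodes fibulin-3, was not well above background in the lines labelled PRDM14 and PRDM14_DNMT3B. Compared with J1, it was at least 13.3-fold lower in the first (fitted log2 difference -5.25, limma adjusted p = 6.45e-05). In the second it was at least 15.4-fold lower (fitted -4.40, limma adjusted p = 0.000108). Efemp1 was 4.57-fold lower in TKO, 2.00-fold higher in Dnmt3b_KO and 3.03-fold higher in Dnmt1_KO than in J1 (limma adjusted p = 0.00391, 0.0317 and 0.0116). The PRDM14-labelled line had 2 of the 16 higher and 3 lower than J1, and the PRDM14_DNMT3B-labelled line 4 and 4, with medians of -0.25 and -0.35. These counts were near the shares over all genes, 20.3% higher and 18.3% lower in the PRDM14-labelled line and 19.1% and 19.3% in the PRDM14_DNMT3B-labelled line. Against Dnmt3b_KO, 1 was higher and 8 lower in the PRDM14-labelled line and 2 higher and 6 lower in the PRDM14_DNMT3B-labelled line. Over all genes, 20.7% were higher and 15.4% lower in the first of these comparisons, and 15.7% and 14.1% in the second.

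Other matricellular genes and the integrin and syndecan receptors of fibronectin had calls both ways. Of 14 matricellular genes listed, 12 were tested, and 6 were higher and 3 lower in the PRDM14-labelled line, 5 and 2 in the PRDM14_DNMT3B-labelled line, 5 and 1 in Dnmt3b_KO, 4 and 1 in Dnmt1_KO and 2 and 3 in TKO, against J1. Their medians in the same order were 0.43, 0.29, 0.48, 0.46 and -0.24. Over all genes the shares were 20.3% higher and 18.3% lower in the PRDM14-labelled line, 19.1% and 19.3% in the PRDM14_DNMT3B-labelled line, 10.3% and 9.32% in Dnmt3b_KO, 12.7% and 14.0% in Dnmt1_KO and 13.5% and 13.7% in TKO. Among the matricellular shares near them were those of lower calls in the PRDM14_DNMT3B-labelled line (16.7%) and of higher calls in TKO (16.7%). Thbs1, which encodes thrombospondin-1, was 26.5-fold lower in the PRDM14-labelled line and 19.3-fold lower in the PRDM14_DNMT3B-labelled line than in J1 (limma adjusted p = 0.000543 and 0.000774). Tgfbi, which encodes a TGF-beta-induced matrix protein related to periostin, was 8.24-fold higher in the PRDM14-labelled line and 6.12-fold higher in the PRDM14_DNMT3B-labelled line than in J1 (limma adjusted p = 4.82e-05 and 7.79e-05). Sparcl1, a relative of Sparc, was not well above background in J1, Dnmt3b_KO or the lines labelled PRDM14 and PRDM14_DNMT3B. It was at least 3.48-fold higher in Dnmt1_KO than in J1. Sparcl1 passed the dim filter only through a line of 1 array where it was bright, so no p-value is given for it. It is among the genes counted as higher in Dnmt1_KO. Of 10 receptor genes listed, 9 were tested, and 2 were higher and 5 lower in the PRDM14-labelled line, 4 and 1 in the PRDM14_DNMT3B-labelled line, 2 and 0 in Dnmt3b_KO, 3 and 1 in Dnmt1_KO and 1 and 3 in TKO, against J1. Their medians were -0.54, 0.13, 0.25, 0.24 and -0.20. Among the receptor shares near those of all genes were higher calls in the PRDM14-labelled line (22.2%) and in TKO (11.1%). The share of lower calls in Dnmt1_KO (11.1%) was also near. Itgb3, the beta-3 integrin, was 6.28-fold higher in the PRDM14-labelled line and 4.27-fold higher in the PRDM14_DNMT3B-labelled line than in J1 (limma adjusted p = 0.000113 and 0.000235). Itga8, the alpha-8 integrin, was at least 8.20-fold lower in the PRDM14-labelled line, where it was not well above background, than in J1 (limma adjusted p = 0.000262). Itga9, the alpha-9 integrin, was 2.20-fold higher in Dnmt3b_KO and 4.60-fold lower in Dnmt1_KO than in J1 (limma adjusted p = 0.00176 and 0.000363).

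SRF and TGF-beta pathway genes gave 1 higher and 4 lower of 16 tested in the PRDM14-labelled line, 2 and 5 in the PRDM14_DNMT3B-labelled line, 4 and 0 in each of Dnmt3b_KO and Dnmt1_KO and 1 and 3 in TKO, against J1. Their medians were -0.19, -0.13, 0.47, 0.18 and 0.04 in that order of lines. In the PRDM14-labelled line 6.25% were called higher and 25% lower, beside 20.3% and 18.3% of all genes. In the PRDM14_DNMT3B-labelled line the shares were 12.5% and 31.2%, beside 19.1% and 19.3% of all genes. TKO had 6.25% and 18.8%, beside 13.5% and 13.7%. The lower shares in the PRDM14-labelled line and TKO were thus near those of all genes. In each single knockout 25% were called higher and 0% lower. Over all genes that was 10.3% and 9.32% in Dnmt3b_KO and 12.7% and 14% in Dnmt1_KO. The ligand gene Tgfb2 was 8.94-fold lower in the PRDM14-labelled line, 2.26-fold lower in the PRDM14_DNMT3B-labelled line and 5.62-fold lower in TKO, and 2.96-fold higher in Dnmt3b_KO and 2.05-fold higher in Dnmt1_KO, than in J1 (limma adjusted p = 6.04e-05, 0.00133, 0.000663, 0.00196 and 0.00854). Its receptor gene Tgfbr2 was 6.61-fold lower in the PRDM14-labelled line, 2.57-fold lower in the PRDM14_DNMT3B-labelled line and 2.25-fold lower in TKO (limma adjusted p = 0.000184, 0.00194 and 0.0115), each against J1. Srf itself, named for its role after its values were seen, differed from J1 by -0.32 to -0.07 over the 5 lines and passed no test.

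Markers of several cell types also differed between the lines, not always in the direction of these genes, and their part in the results was not tested. Of 11 fibroblast markers, 5 to 8 were well above background per array. Col1a1, Col1a2, Pdgfrb, Twist1 and Mmp2 were so on all 10 arrays, and the fibroblast activation gene Fap and the protease gene Mmp3 on none. Their summed intensity, in multiples of the 75th percentile, was 0.749 to 0.751 in the PRDM14-labelled line, 1.47 to 1.52 in the PRDM14_DNMT3B-labelled line, 7.70 to 7.72 in Dnmt3b_KO, 5.50 in Dnmt1_KO and 4.68 in TKO, against 1.71 to 2.06 in J1. The sum was lowest in the PRDM14-labelled line and highest in Dnmt3b_KO, with J1 below all 3 knockout lines. In Dnmt3b_KO the sum came mostly from the collagen genes Col1a1 and Col1a2, with mean levels of 1.74 and 1.43, against -1.97 and -2.04 in J1. The log2 differences of Col3a1 (-0.02), Pdgfrb (-0.08), Twist1 (0.20) and Mmp2 (0.08) between Dnmt3b_KO and J1 did not pass the test. Of 8 fibroblast markers tested, 0 were higher and 6 lower in the PRDM14-labelled line, 0 and 3 in the PRDM14_DNMT3B-labelled line, 3 and 0 in Dnmt3b_KO, 4 and 1 in Dnmt1_KO and 5 and 0 in TKO, against J1. Among the 8 was Col5a2, which was well above background only in Dnmt1_KO and TKO. It passed the dim filter only through those lines, where it was high, so their counts of higher calls are not free of the filter. Over all genes, 20.3% were higher and 18.3% lower in the PRDM14-labelled line, and 19.1% and 19.3% in the PRDM14_DNMT3B-labelled line. In the knockouts it was 10.3% and 9.32% in Dnmt3b_KO, 12.7% and 14% in Dnmt1_KO and 13.5% and 13.7% in TKO. The 12.5% of these markers called lower in Dnmt1_KO was near that share. The medians of the fibroblast markers, in the same order of lines, were -1.14 (-0.94 with dim genes at their bound), -0.47, 0.54, 0.94 (0.89) and 0.89 (0.34). Col1a1, a chain of type I collagen, was 13.1-fold higher in Dnmt3b_KO and 5.16-fold lower in the PRDM14-labelled line than in J1 (limma adjusted p = 0.000176 and 5.56e-05). Twist2, a transcription factor of fibroblasts, was at least 1.84-fold lower in the PRDM14-labelled line, where it was not well above background, than in J1. The limma adjusted p of 5.69e-05 belongs to the fitted log2 difference of -3.17 and not to this bound.

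Of 13 markers of primitive and parietal endoderm, a cell type known for abundant SPARC, 11 were higher and 0 lower in TKO than in J1, with summed intensities of 86.4 in TKO and 54.7 to 57.8 in J1. The Sparc probes did not pass the test in TKO. In the other comparisons with J1, these markers gave 2 higher and 6 lower in the PRDM14-labelled line, 3 and 4 in the PRDM14_DNMT3B-labelled line, 5 and 1 in Dnmt3b_KO and 4 and 2 in Dnmt1_KO. In the PRDM14_DNMT3B-labelled line that was 23.1% higher and 30.8% lower, beside 19.1% and 19.3% of all genes. Of 6 mesoderm markers tested, 1 was higher and 3 lower in the PRDM14-labelled line, 0 and 3 in the PRDM14_DNMT3B-labelled line, 3 and 0 in each of Dnmt3b_KO and Dnmt1_KO and 1 and 3 in TKO. Of the 10 embryonic stem cell markers, 4 were higher and 0 lower in the PRDM14-labelled line, 4 and 1 in the PRDM14_DNMT3B-labelled line, 3 and 0 in Dnmt3b_KO, 0 and 6 in Dnmt1_KO and 1 and 2 in TKO, against J1. Over all genes the shares called against J1 were 20.3% higher and 18.3% lower in the PRDM14-labelled line, 19.1% and 19.3% in the PRDM14_DNMT3B-labelled line, 10.3% and 9.32% in Dnmt3b_KO, 12.7% and 14.0% in Dnmt1_KO and 13.5% and 13.7% in TKO. Among the marker shares near these were those of the embryonic stem cell markers in TKO (10% higher, 20% lower). So were 16.7% of mesoderm markers higher in the PRDM14-labelled line and in TKO, and 15.4% of endoderm markers lower in Dnmt1_KO.

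**Figure D4:**
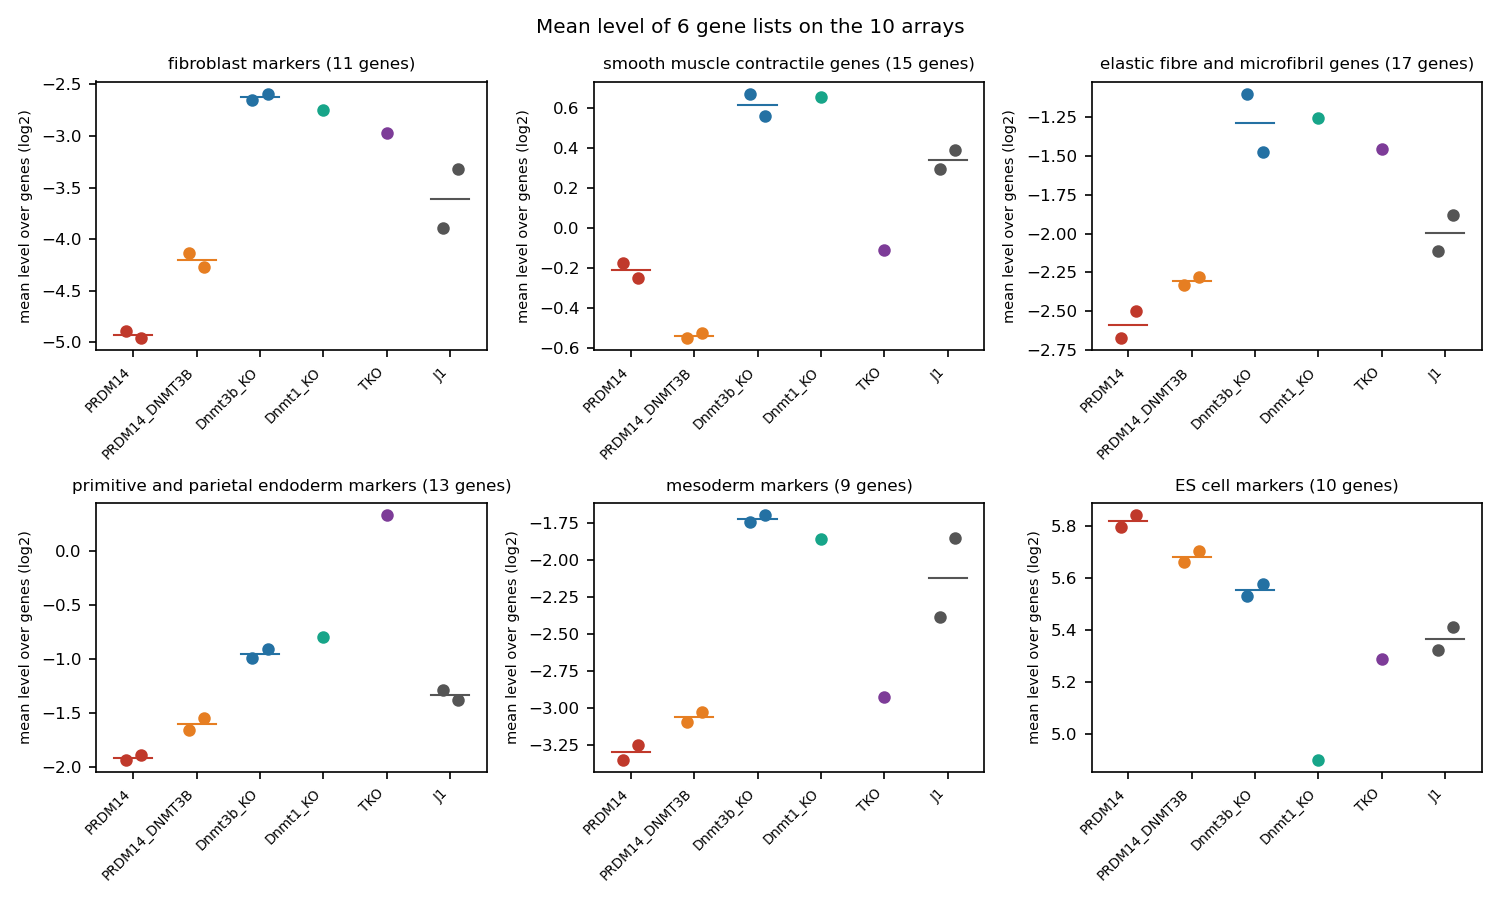
Mean level over all listed genes on the array for 6 lists (vertical axis, log2 intensity minus the 75th percentile, scaled per panel), by group, where points are arrays and bars are means of 2 arrays. The fibroblast markers are lowest on the PRDM14-labelled arrays and highest in Dnmt3b_KO, and the endoderm markers are highest in TKO.

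Across the 10 arrays these genes did not form a single block. Dcn and Thy1 had a Pearson r of 0.93, Dcn and Tagln of 0.89, and Thy1 and Tagln of 0.85. Acta2 and Tagln had r of 0.65, Dcn and Fbln2 of -0.02, and the 2 Sparc probes of 0.60. These values describe 10 arrays that fall into 6 groups, and they are given with no test. Among 13723 other genes whose level spanned at least 1 log2 unit, the level of Tagln was most like those of Antxr2, Cnn1 and Parva (r = 0.995, 0.993 and 0.993). The level of Dcn was most like those of Gm4371 and Abcc1 (r = 0.995 and 0.994) and of a probe with no gene symbol. Thy1 was nearest to Prex1 and Tmem63a (r = 0.992 and 0.989), and Fbln2 to Mmp14, Fut9 and Kndc1 (r = 0.979, 0.973 and 0.954). Fn1 was nearest to Ank3, Rhoc and Scin (r = 0.981, 0.964 and 0.957), and Fbn1 to Adamts19 and Prl2c5 (r = 0.970 and 0.967) beside a probe with no gene symbol. Acta2 was nearest to Lnx1 and Agxt2l2 (r = 0.977 and 0.961) and to a probe described as thioredoxin reductase 2 (r = 0.956). Sparc probe 1 was nearest to Xaf1, Rassf5 and 1700008O03Rik (r = 0.975, 0.939 and 0.932).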

How the data were processed

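Per the file headers, the scanner files hold 1 intensity per spot, made by Agilent Feature Extraction 10.7.3.1 with background trends removed within each array and no scaling between arrays. The table of values that the authors deposited was taken to be log2 intensity scaled between arrays. Each of its columns had a median of 4.243 and tracked the scanner's log2 values (r of 0.999 or more), and its exact scaling is unknown. The submitters' processing notes also name limma.

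Intensities were put on the log2 scale relative to the 75th percentile of each array, outlier spots were left out, spots of a probe were averaged, and 33100 probes that passed the dim filter entered 1 limma fit (limma 3.58.1, R 4.3.3) over 10 arrays in 6 groups, with no covariates. Residual and prior degrees of freedom were 4 and 1.74. P-values were adjusted over all probes by the Benjamini-Hochberg method, and calls were made under 0.05. Gene lists used the brightest probe of each of 23729 genes. A gene dim in J1 could enter the test only through another line where it was bright, and counts of higher calls include such genes. The shares over all genes came through the same filter. The named genes were up to 3 called genes of each list with the largest differences and, for each of the 10 genes, those of most similar level, of which a few are not reported here. The fit was tested on simulated data. Precision is limited by the small number of arrays. Probe positions are on mm9, per the file headers, with no mm9 annotation used here, so exon and UTR positions are not given. Alternatives changed the background correction, scaling, source table, filter, probe choice, arrays, pairing, slide block and groups fitted. The genes and lists were chosen with earlier results of these data known.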

Additional observations from a re-analysis of the deposited data

How the results depend on the processing

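Across 18 other settings, and with slide as a random block, which was added after seeing the data, no called difference of the 9 probes changed sign. Of these single results 1226 stayed on their side of the threshold, 34 lost the call and 29 gained it. The number of probes called ran from 6 to 8 in the PRDM14-labelled line, 6 to 7 in the PRDM14_DNMT3B-labelled line, 4 to 6 in Dnmt3b_KO, 5 to 7 in Dnmt1_KO and 4 to 5 in TKO, all against J1. It ran from 2 to 4 in the PRDM14_DNMT3B-labelled against the PRDM14-labelled line, and against Dnmt3b_KO from 7 to 8 in PRDM14-labelled and 7 to 9 in PRDM14_DNMT3B-labelled arrays. Normexp correction with quantile normalization shrank the called differences of Dcn and Fbn1 from Dnmt3b_KO. In the PRDM14-labelled line that of Dcn went from -3.24 to -0.89 and that of Fbn1 from -1.81 to -0.66. In the PRDM14_DNMT3B-labelled line that of Dcn went from -3.83 to -1.04 and that of Fbn1 from -1.25 to -0.52. With no filter, Postn passed the test in 4 comparisons although it was dim on all arrays. Sparc probe 2 in the PRDM14_DNMT3B-labelled line against J1 gained the call in 8 of 18 settings. Deviations of same-numbered replicates correlated at 0.102 to 0.218 over 33100 probes, and the numbers are not stated to mark a shared batch. With the replicate number as a block, the replicate block, 7 probes of these genes were called in each of the PRDM14-labelled and PRDM14_DNMT3B-labelled lines and 5 in Dnmt3b_KO against J1. That block gave 3 in the PRDM14_DNMT3B-labelled against the PRDM14-labelled line, and 7 and 9 in those lines (PRDM14, then PRDM14_DNMT3B) against Dnmt3b_KO. The call it added in the PRDM14_DNMT3B-labelled line was that of Sparc probe 2 (limma adjusted p = 0.0199 against J1 and 0.0250 against Dnmt3b_KO). Counts over all probes moved more, and the cause was not tested. In Dnmt3b_KO against J1, 6452 of all probes were called, with 2209 when only those groups were fitted, 3368 with no filter, 3001 to 4234 without 1 array of either group and 10882 with slide as a random block. In Dnmt1_KO against J1, 8733 were called, with 4696 with no filter, 5724 without J1 replicate 2 and 13103 with the random block, and in TKO against J1 8886, with 5426 with no filter. In the PRDM14_DNMT3B-labelled against the PRDM14-labelled line, 6414 were called, with 3199 with no filter and 2220 to 3422 without 1 of their arrays. Without PRDM14 replicate 1, 8338 in place of 12619 were called against J1 and 7154 in place of 11670 against Dnmt3b_KO (7493 without PRDM14 replicate 2), and without Dnmt3b_KO replicate 2, 6371 in place of 9780 in the PRDM14_DNMT3B-labelled line against Dnmt3b_KO.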
